A study of Homo sapiens with 12 samples.

Results

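Palbociclib, which blocks the catalytic activity of the cyclin-dependent kinases CDK4 and CDK6, was compared with its vehicle in MV4-11 cells by sequencing of polyadenylated RNA. MV4-11 is an established human line of acute myeloid leukaemia with a fused KMT2A gene and a tandemly duplicated stretch in the receptor gene FLT3. The 3 palbociclib libraries came from cells given 200 nM for 6 h, and the 3 vehicle libraries from cells given 0.1% DMSO for 6 h. These are 6 of the 12 libraries of the study, in which 3 libraries each of BSJ-03-123 and YKL-06-102, described by the submitters as phthalimide conjugates specific for CDK6, were made at the same dose and time. The members were all expressed genes: 14214 of the 58051 genes in the deposited table passed the filter on low counts and were tested, and they held 99.92% of all counts. Every library comes from 1 cell line, and the labels do not say whether replicates were separate cultures, so the p-values speak only to how these libraries vary, which may be a technical spread.

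With D-type cyclins, CDK4 and CDK6 phosphorylate the pocket proteins RB1, RBL1 and RBL2. Unphosphorylated RB1 holds back E2F transcription factors, and RBL1 or RBL2 joins E2F4, a DP partner and the MuvB core in the DREAM complex, which represses cell cycle genes through E2F sites and through CHR elements. CDK6 is a known dependency of leukaemias with a KMT2A fusion, and inhibition of CDK4 and CDK6 is known to hold cells with intact RB in G1. Genes of DNA replication and of mitosis are the textbook targets, so the values below are mainly of genes outside the lists drawn up for those groups.

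Library totals of the 6 libraries lay between 18764307 and 25539858 counts. CPM here are counts scaled to a common library size with edgeR's TMM factors and not divided by gene length, so levels are compared between libraries and not between genes. DMSO replicate 2 stood apart from the other DMSO libraries, with a chi-square statistic per degree of freedom of 5.88 and 8.91 against them, where 1 is sampling noise alone and the other 4 pairs within a group gave 1.82 to 2.06. It also held 2.43% of its counts in mitochondrial genes, against 3.20% and 3.45% in the other DMSO libraries and 2.75% to 3.12% with palbociclib. Of 11 markers of myeloid leukaemia cells, 10 were at 1 CPM or more in all 6 libraries, and their sum was 2139 to 2164 CPM with DMSO and 2304 to 2335 CPM with palbociclib. Of 7 markers of T, B and NK cells 5 were under 1 CPM in every library, as were 4 of 6 markers of red cells and platelets and all 7 of fibroblasts, endothelium and epithelium. Log2 fold changes are palbociclib over DMSO from edgeR's quasi-likelihood fit and are followed by their standard error (SE), a mean CPM is followed by its SD, and each group has n = 3 libraries. A gene was called at an edgeR adjusted p (Benjamini-Hochberg) under 0.05 over all 14214 genes, and "rose" and "fell" are used only of called genes. Most genes named below were chosen among called genes whose 2 groups of libraries do not overlap. For them a statement that the groups lie apart repeats a condition of the choice and is no further support.

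The response to palbociclib at 6 h was broad in number of genes and small in size, and among well-expressed genes the 2-fold changes were all decreases. Of the 14214 genes, 2224 were higher, which is 15.6%, and 2507 were lower, which is 17.6%. In all, 33.3% were called, in 41.7% the ranges of the 2 groups did not overlap, and 93.07% of genes lay within 1.5-fold of DMSO. Every count of list members below is to be read against 15.6% higher and 17.6% lower. These shares take in weakly counted and non-coding genes, which were called less often. Of 11799 protein-coding genes 38% were called, so a list slightly above the shares over all genes is no sign of an excess. At least 2-fold decreases were called in 223 genes, 1.57% of those tested, and at least 2-fold increases in 39, which is 0.274%. Of the 10368 genes whose average log2 CPM reached 2, about 4 CPM, 151 fell at least 2-fold and 0 rose at least 2-fold. By some amount 2023 of the 10368 were called higher and 2306 lower, and 38 were higher by 1.5-fold or more. The largest decrease in that range was 23.5-fold, in the cyclin gene CCNE2, which overlaps INTS8, and the largest increase 1.96-fold, in TMEM150A. DESeq2 called 4 genes, of any expression level, at least 2-fold higher.

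The balance of called genes depended on how libraries were scaled. Scaled by library totals alone, 3396 genes were called higher and 1949 lower, so that 63.5% of calls were increases instead of 47%. Small shifts of weakly moved genes are therefore relative to the scaling, and the values below are on the TMM scale.

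**Figure D1:**
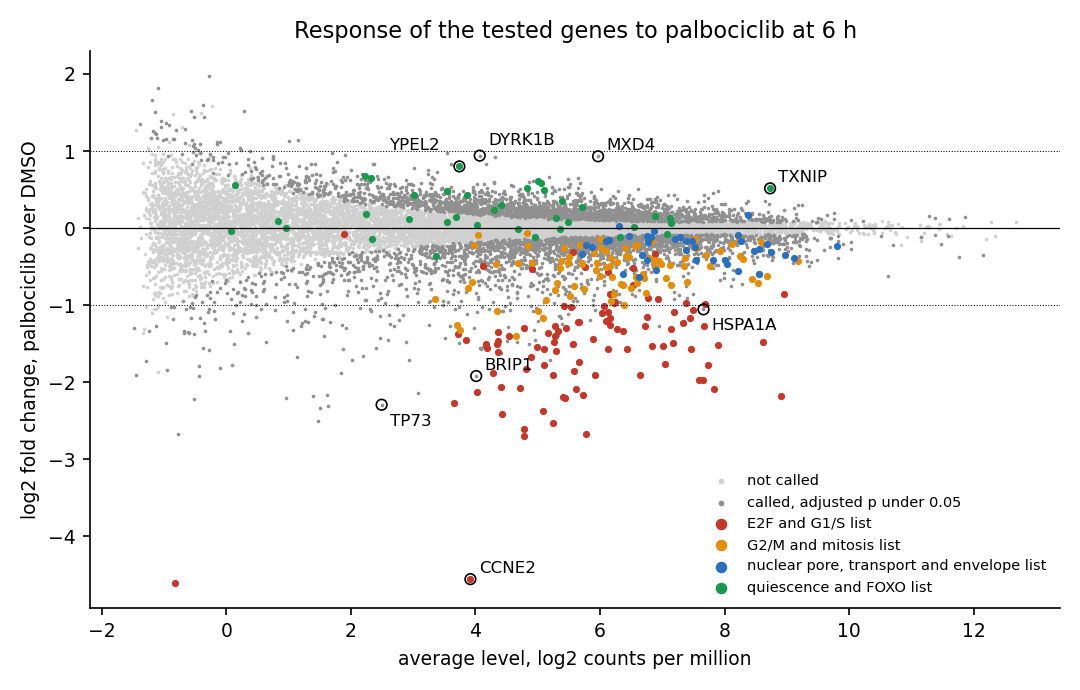
Log2 fold change of palbociclib over DMSO (y axis) against average log2 CPM over the 12 libraries of the fit (x axis) for the 14214 tested genes, 1 point a gene. Called genes are in darker grey than genes not called. Colours mark members of the E2F and G1/S, the G2/M and mitosis, the nuclear pore, transport and envelope, and the quiescence and FOXO lists. Well-expressed genes extend to 23.5-fold lower and no further than 1.96-fold higher.

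The decrease can also be given as a share of the transcript pool. The 223 genes that fell at least 2-fold held 1.47%, 1.46% and 1.47% of counts in the DMSO libraries and 0.532%, 0.528% and 0.532% with palbociclib. The 1968 genes that fell by less than 1.5-fold held far more of the pool, 24.7% on average with DMSO and 21.9% with palbociclib. On the other side stood 2055 genes that rose by less than 1.5-fold, which went from 14.6% to 17.1%. The 39 genes that rose at least 2-fold had a median of 0.277 CPM with DMSO and made up only 0.0013% and 0.0031% of counts. These sets were chosen by the same contrast, so their shares are a description. In bulk RNA, fewer cells of a kind and less RNA per cell cannot be told apart.

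Among the drug's targets and their partners, most genes of the MuvB, DP and pocket protein side fell and the D cyclins did not. Of 26 genes tested 14 fell and 4 rose, with a median log2 fold change of -0.27, where the median of all tested genes was 0.014. The transcript of CDK4 fell (-0.45 ± 0.033) and that of CDK6 rose slightly (0.14 ± 0.035). CDK4 is annotated in GRCh38 as ENSG00000135446, chromosome 12, 57747727 to 57756013, and CDK6 as ENSG00000105810, chromosome 7, 92604921 to 92836594. CDK4 overlaps TSPAN31, and without a stated strand setting the counts of overlapping genes are uncertain.

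Of the D cyclins only CCND2 was called: it stood at 37.2, 35.7 and 39.3 CPM with DMSO and 49.4, 49.8 and 50.5 CPM with palbociclib. All 3 treated libraries were above all 3 DMSO libraries (0.42 ± 0.047, edgeR adjusted p = 4.68e-08). CCND1 (0.16 ± 0.076) and CCND3 (-0.081 ± 0.04) did not pass the test. The pocket protein gene RBL1, p107, stood at 103, 97.8 and 109 CPM with DMSO and 40.8, 37.6 and 35.8 CPM with palbociclib. The groups did not overlap, and RBL1, which is also in the E2F and G1/S list, fell by more than any other pocket protein gene (-1.44 ± 0.049). RB1 fell by less (-0.24 ± 0.042) and RBL2, p130, rose (0.14 ± 0.034).

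Of 9 tested genes of the MuvB core and its DREAM partners 7 fell and 0 rose, with a median of -0.44. MYBL2, the B-MYB partner of MuvB in mitotic gene activation, fell from 256 ± 14.2 to 75.2 ± 0.393 CPM (-1.77 ± 0.04). It is also in the E2F and G1/S list. The DP subunit TFDP1 fell by less (-0.65 ± 0.03). Of 7 INK4 and CIP/KIP inhibitor genes 4 fell and 0 rose. CDKN2C, which encodes the CDK4/6 inhibitor p18, stood at 59.99, 66.6 and 60.7 CPM with DMSO and 35.2, 34.4 and 34.7 CPM with palbociclib. Its palbociclib libraries all lay below the DMSO libraries (-0.85 ± 0.048). CDKN1A, which encodes p21, fell by less (-0.32 ± 0.05), and CDKN1B, p27, was not called (-0.079 ± 0.039).

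In the opposite direction, the kinase gene DYRK1B rose. Of the 2 DYRK kinase genes in the list it was the only one called, and the other was at -0.025. DYRK1B is a relative of DYRK1A, which phosphorylates the MuvB subunit LIN52 in DREAM assembly, and is known for stabilising p27 and destabilising cyclin D. It stood at 9.74, 10.4 and 10.6 CPM with DMSO and 19.1, 18.9 and 21.3 CPM with palbociclib. The lowest palbociclib library was well above the highest DMSO library, and the change was close to 2-fold (0.94 ± 0.073, edgeR adjusted p = 1.51e-11). DYRK1B lies in GRCh38 at ENSG00000105204, chromosome 19, 39825350 to 39834201.

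The lists of the 2 textbook groups moved as groups, and genes outside the lists fell as well. Of 97 genes of an E2F and G1/S list 96 fell, 80 of them at least 2-fold, with a median log2 fold change of -1.46. Of 86 genes of a G2/M and mitosis list 84 fell and 6 at least 2-fold, with a median of -0.48. The summed share of counts of the E2F list went from 1.395%, 1.391% and 1.395% to 0.541%, 0.540% and 0.541%. Its palbociclib level was 0.388 of that with DMSO. Of the 223 genes that fell at least 2-fold, 80 were in the E2F list, 6 in the G2/M list and 137 in neither. The lists are not complete, and kinetochore genes such as CENPU and DSN1, given below, are in neither. A place outside them is therefore no sign of a place outside the cell cycle.

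The 20 largest decreases outside both lists, among well-expressed genes, ran from -2.29 to -1.46. The largest was that of TP73, a p53 family transcription factor, at 12.6, 14.4 and 10.8 CPM with DMSO and 2.48, 2.43 and 2.89 CPM with palbociclib. Every treated library was far below the lowest DMSO library (-2.29 ± 0.14, edgeR adjusted p = 5.77e-15). TP73 overlaps its antisense gene TP73-AS1, so its counts are uncertain. PSMC3IP, a gene of meiotic recombination, fell next (-2.14 ± 0.10), with MLX as its overlapping gene.

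Several of these genes belong to repair of broken or stalled forks. BRIP1, the helicase of Fanconi group J, stood at 33.7, 30.4 and 36.5 CPM with DMSO and 8.16, 8.97 and 9.4 CPM with palbociclib. The decrease was well outside the spread of either group (-1.92 ± 0.08). RMI2, a subunit of the BLM dissolution complex (-1.55 ± 0.079), the recombination gene XRCC2 (-1.49 ± 0.079), RAD54L (-1.50 ± 0.052) and DONSON, which acts in assembly of the replicative helicase (-1.55 ± 0.069), fell by similar amounts. RAD54L and DONSON overlap LRRC41 and SON.

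SLFN11, known for arresting stressed replication forks and for raising sensitivity to DNA-damaging drugs, stood at 14.9, 13.7 and 13.1 CPM with DMSO and 4.31, 4.24 and 4.15 CPM with palbociclib. The groups lay far apart relative to their spread (-1.71 ± 0.099, edgeR adjusted p = 9.30e-15). SLFN11 lies in GRCh38 at ENSG00000172716, chromosome 17, 35350305 to 35373701. Kinetochore and centriole genes were also among the 20: CENPU (-1.71 ± 0.056; it overlaps PRIMPOL), DSN1 (-1.47 ± 0.077) and TEDC2 (-1.57 ± 0.077). The alpha-catenin relative CTNNAL1 (-1.55 ± 0.14), the adaptor KANK2 (-1.46 ± 0.065), the orphan receptor GPR153 (-1.48 ± 0.11), PLCXD1 (-1.52 ± 0.047) and TMEM106C (-1.62 ± 0.067) have no textbook place in the cell cycle.

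Promoter sequences were read beside these responses because E2F and DREAM act through short promoter motifs. Shown are stretches of 150 bases before the RefSeq start of genes that fell, of which 4 hold an E2F site and 1 does not, and of 3 genes that rose. They come from RefSeq promoters (GRCh38.p14), read 5′ to 3′ on the gene's strand and free of bases that GENCODE 29 places in an exon. For HELLS, GENCODE 29 also has transcripts that start farther upstream, so its stretch lies inside the gene as annotated there. Capitals mark a match to TTTCCCGC, TTTGGCGC, TTTCGCGC or TTTGCCGC on either strand. The genes were chosen after their values were seen.
E2F1, chr20:33686405-33686554, minus strand: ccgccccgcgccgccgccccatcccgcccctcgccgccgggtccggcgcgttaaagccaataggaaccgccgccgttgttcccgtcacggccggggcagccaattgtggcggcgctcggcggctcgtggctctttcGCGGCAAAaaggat
TFDP1, chr13:113584571-113584720, plus strand: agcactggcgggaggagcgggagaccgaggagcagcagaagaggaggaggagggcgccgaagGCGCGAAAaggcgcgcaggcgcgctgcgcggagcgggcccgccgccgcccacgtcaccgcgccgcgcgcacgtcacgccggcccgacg
HELLS, chr10:94545638-94545787, plus strand: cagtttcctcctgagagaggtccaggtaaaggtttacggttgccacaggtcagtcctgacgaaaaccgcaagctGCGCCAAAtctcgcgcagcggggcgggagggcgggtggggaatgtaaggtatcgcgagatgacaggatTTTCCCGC
NSD2, chr4:1871243-1871392, plus strand: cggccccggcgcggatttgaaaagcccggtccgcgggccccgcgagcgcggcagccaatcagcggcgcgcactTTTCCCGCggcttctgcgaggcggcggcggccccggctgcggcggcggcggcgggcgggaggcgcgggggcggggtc
BRIP1, chr17:61863529-61863678, minus strand: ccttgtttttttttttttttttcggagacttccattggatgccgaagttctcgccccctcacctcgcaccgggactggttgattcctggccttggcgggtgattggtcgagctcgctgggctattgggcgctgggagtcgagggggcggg
DYRK1B, chr19:39834202-39834351, minus strand: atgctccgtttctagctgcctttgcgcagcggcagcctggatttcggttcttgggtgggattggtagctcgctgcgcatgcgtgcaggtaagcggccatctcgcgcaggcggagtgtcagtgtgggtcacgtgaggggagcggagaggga
DDIT4, chr10:72273770-72273919, plus strand: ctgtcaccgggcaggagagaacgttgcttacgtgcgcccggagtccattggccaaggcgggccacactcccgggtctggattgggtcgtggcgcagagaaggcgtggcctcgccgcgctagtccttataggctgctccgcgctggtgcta
TXNIP, chr1:145996601-145996750, minus strand: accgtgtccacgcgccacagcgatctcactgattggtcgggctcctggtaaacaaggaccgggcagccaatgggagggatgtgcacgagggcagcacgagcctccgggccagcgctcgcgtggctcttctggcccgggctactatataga

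The first 4 belong to genes that fell: E2F1 (-2.53 ± 0.054), TFDP1 (-0.65 ± 0.03), the chromatin remodeller HELLS (-2.13 ± 0.079) and the histone methyltransferase NSD2 (-0.91 ± 0.032). HELLS held 2 matches in its stretch and the other 3 held 1 each. BRIP1, which fell by more than NSD2 or TFDP1 (-1.92 ± 0.08), had no match in the stretch shown, nor had DYRK1B (0.94 ± 0.073), DDIT4 (0.83 ± 0.092) or TXNIP (0.52 ± 0.028), which rose. A match is a description of letters, and the lack of one says only that these letters are not in the window.

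Over all genes, promoters with an E2F site were found most often among the genes that fell most. The 4 motifs were searched on both strands from 250 bases before to 50 after the RefSeq start, for the 9666 of 11799 tested protein-coding genes with a sequence, 81.9%. Among genes that fell at least 1.5-fold, 81 of 391 promoters held one (20.7%, exact binomial 95% interval 16.8% to 25.1%). The share was 7.54% among genes that fell by less, 4.74% among genes not called, 3.73% among genes that rose by less than 1.5-fold and 1.11%, 1 of 90, among those that rose by more (0.0281% to 6.04%). All tested promoters gave 5.65%, and all 27305 RefSeq promoters of this length 3.33%. With only TTTCCCGC and TTTGGCGC, the share among genes that fell at least 1.5-fold was 16.6%, and 3.94% of all tested promoters held one.

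Outside the E2F and G2/M lists the same order was seen, at a lower level: 43 of 289 promoters of genes that fell at least 1.5-fold held a site (14.9%, 11% to 19.5%). Read the other way, of 504 genes outside both lists with a site 31.7% fell and 12.1% rose, and of 9014 without one 18.7% fell and 18.1% rose. Most genes with a site were therefore not called lower. In the G2/M list, 69.4% of 72 promoters held a CHR, here TTTGAA or TTCGAA on either strand, and 68.1% held CCAAT, against 11.2% and 36.7% of all tested promoters. Those shares describe a list written from knowledge of such promoters. The E-box CACGTG was found in 11% of promoters of genes that fell at least 1.5-fold and in 10.4% of all tested promoters. Among all RefSeq promoters, 16.6% held a CHR, 35.7% CCAAT and 7.43% the E-box.

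**Figure D2:**
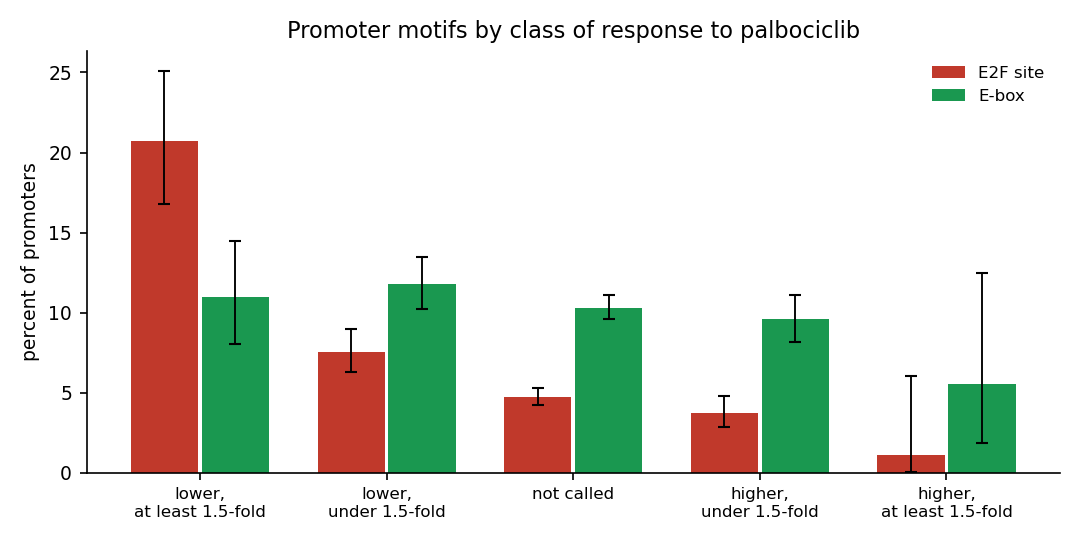
Percent of promoters holding an E2F site or an E-box (bars, y axis, with exact binomial 95% intervals) in 5 classes of response to palbociclib (x axis), for tested protein-coding genes with a RefSeq promoter. The E2F bars go from 20.7% among genes at least 1.5-fold lower to 1.11% among those at least 1.5-fold higher, and the E-box bars from 11% to 5.56%. The CHR, CCAAT and NRF1 motifs are not drawn.

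Genes that share a start region with a fallen gene moved unevenly. Starts on opposite strands within 1 kb, without overlap of the genes, paired 33 tested genes with a gene that fell at least 2-fold. Of these partners 15 fell and 4 rose, 45.5% and 12.1%, with a median of -0.15, where 19.8% and 15.6% of all 1584 genes in such pairs fell and rose. The partners include 2 pairs in which both genes fell at least 2-fold, RIBC2 with SMC1B and CCHCR1 with TCF19, each counted from both sides. The pairs below were chosen after their values were seen.

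Some partners fell with the cell cycle gene, by less. PRKDC, the catalytic subunit of the DNA-dependent protein kinase, starts 2 bases from MCM4, a subunit of the replicative helicase. PRKDC went from 847 ± 30.7 to 634 ± 34.99 CPM (-0.42 ± 0.047), and MCM4 changed by -2.18 ± 0.03. INTS7, of the Integrator complex, lies 11 bases from the ubiquitin ligase adaptor DTL, and UFD1 244 bases from the helicase component CDC45. INTS7 (-0.36 ± 0.04) fell less than DTL (-2.09 ± 0.044), and UFD1 (-0.27 ± 0.046) less than CDC45 (-2.37 ± 0.051).

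Other partners moved in the opposite direction. NBR1, an autophagy receptor, starts 236 bases from BRCA1, a homologous recombination gene, and stood at 73.5, 70.1 and 73.4 CPM with DMSO and 99.6, 98.1 and 93.6 CPM with palbociclib. All treated libraries of NBR1 were above all DMSO libraries (0.43 ± 0.037), and BRCA1 fell (-1.57 ± 0.046). The annotation places AC060780.1 over both genes, so their counts are uncertain. TRIP4, 61 bases from the clamp-associated gene PCLAF, rose by 0.28 ± 0.05, and PCLAF changed by -1.45 ± 0.072. CDS2, 160 bases from the sliding clamp gene PCNA, rose by 0.15 ± 0.045, and PCNA changed by -1.52 ± 0.033. VPS35 (-0.038 ± 0.031), next to ORC6 (-1.40 ± 0.065), was not called, and neither was PRPF38A (-0.019 ± 0.037), next to ORC1 (-1.86 ± 0.048).

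**Figure D3:**
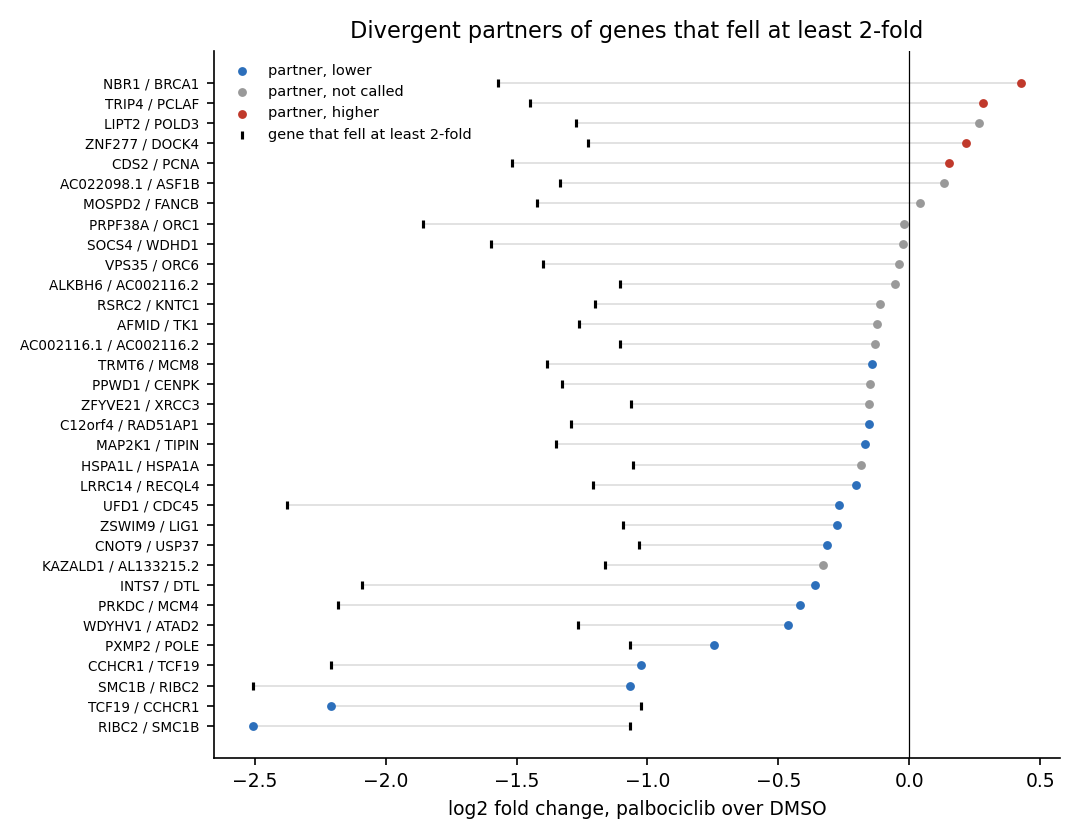
Log2 fold change of palbociclib over DMSO (x axis) for 33 pairs, 1 line of the plot a pair named partner / fallen gene, with the partner as a point coloured by its call and the gene that fell at least 2-fold as a tick. Of the partners 15 fell and 4 rose, among them NBR1 at 0.43 opposite BRCA1 at -1.57.

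Of the 76 DNA repair genes outside the E2F list 41 fell, 12 of them at least 2-fold, and 11 of those 12 were in 1 branch. Of 25 genes of the Fanconi and homologous recombination branch 20 fell, 11 of them at least 2-fold, and 0 rose, with a median of -0.83. Of 18 mismatch and base excision repair genes 8 fell and 1 rose (median -0.10). Nucleotide excision repair went the other way in part, with 5 of 13 genes higher and 3 lower and a median of 0.071. In end joining and damage signalling 10 of 20 fell and 4 rose. Over all 76 repair genes 10 rose, and 6 without palbociclib replicate 1 and 16 with library totals.

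FANCG, a subunit of the Fanconi core complex, stood at 70.1, 69.3 and 67.8 CPM with DMSO and 28.6, 29.3 and 29.7 CPM with palbociclib. The groups did not overlap (-1.24 ± 0.048, edgeR adjusted p = 1.80e-18). XRCC3, also of recombination, fell from 89.9 ± 5.31 to 43.2 ± 3.54 CPM (-1.06 ± 0.052; it overlaps KLC1). TOPBP1, the activator of the ATR kinase, fell from 209 ± 7.64 to 118 ± 3.64 CPM (-0.83 ± 0.034), and the damage-binding gene DDB2 of nucleotide excision repair from 23.97 ± 0.548 to 14.6 ± 0.749 CPM (-0.71 ± 0.061).

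Of 63 tested chromatin and DNA methylation regulators outside the E2F list, 27 fell and 5 rose, and the Polycomb and histone methyltransferase genes held the largest decreases. Of 16 Polycomb genes 8 fell and 0 rose, and of 18 histone methyltransferases and demethylases 7 fell and 4 rose. DNA methylation genes outside the E2F list showed 1 higher and 1 lower of 8. EZH2, the H3K27 methyltransferase of Polycomb repressive complex 2, stood at 91.1, 86.1 and 88.6 CPM with DMSO and 49.3, 44.3 and 45.6 CPM with palbociclib. Every treated library was below every DMSO library (-0.93 ± 0.043, edgeR adjusted p = 1.80e-16). EZH2 lies in GRCh38 at ENSG00000106462, chromosome 7, 148807383 to 148884321.

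Among the other writers, NSD2, the H3K36 dimethyltransferase, stood at 243, 251 and 252 CPM with DMSO and 133, 133 and 131 CPM with palbociclib. The gap between the groups far exceeded the range within either (-0.91 ± 0.032). DNMT1, the maintenance DNA methyltransferase, which sits in the E2F list, fell from 716 ± 3.98 to 397 ± 8.3 CPM (-0.85 ± 0.029). Of Polycomb complex members, CBX2 fell most (-1.08 ± 0.067), and the accessory subunit PHF19 by less (-0.50 ± 0.033). The histone variant gene H2AFZ, H2A.Z, fell from 382 ± 7.93 to 227 ± 2.6 CPM (-0.75 ± 0.031).

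Genes of the nuclear envelope and of transport through it fell almost as a whole, by small amounts. Of 38 tested genes of nuclear pores, karyopherins and lamina 35 fell and 1 rose, against 17.6% lower among all tested genes, with a median of -0.25. Their summed share of counts was 0.946%, 0.945% and 0.945% with DMSO and 0.807%, 0.796% and 0.799% with palbociclib. NUP155, a structural nucleoporin, stood at 129.98, 130.00 and 134 CPM with DMSO and 86.8, 81.98 and 85.3 CPM with palbociclib. The treated libraries were all well below the DMSO libraries (-0.63 ± 0.035). NUP85 (-0.60 ± 0.037) and NUP62 (-0.55 ± 0.034; it overlaps ATF5) of the pore, the export receptor of importin alpha CSE1L (-0.46 ± 0.029) and LMNB1, lamin B1, which is also in the G2/M list (-0.60 ± 0.03), fell too.

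RNA processing and folding genes followed with smaller shifts. Of 36 SR and hnRNP splicing factor genes 18 fell and 0 rose, or 1 without DMSO replicate 2 or 3, with a median of -0.095, among them HNRNPF (-0.44 ± 0.031), SRSF2 (-0.42 ± 0.029) and TRA2B (-0.35 ± 0.028). In the heat shock and unfolded protein response list, 17 of 20 cytosolic chaperone genes fell and 1 rose (median -0.24). Of its 19 endoplasmic reticulum genes 4 fell and 5 rose. HSPA1A, the inducible HSP70, stood at 277, 305 and 273 CPM with DMSO and 134, 138 and 140.4 CPM with palbociclib. HSPA1A was the one member of that list to fall at least 2-fold (-1.05 ± 0.041), and its counts are uncertain because HSPA1B is nearly the same in sequence. The HSP110 gene HSPH1 (-0.45 ± 0.03), the constitutive HSP70 gene HSPA8 (-0.35 ± 0.034) and HSP90AA1 (-0.38 ± 0.032) fell by less. The share of counts of all 39 genes of the list went from 2.59% to 2.37%.

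**Figure D4:**
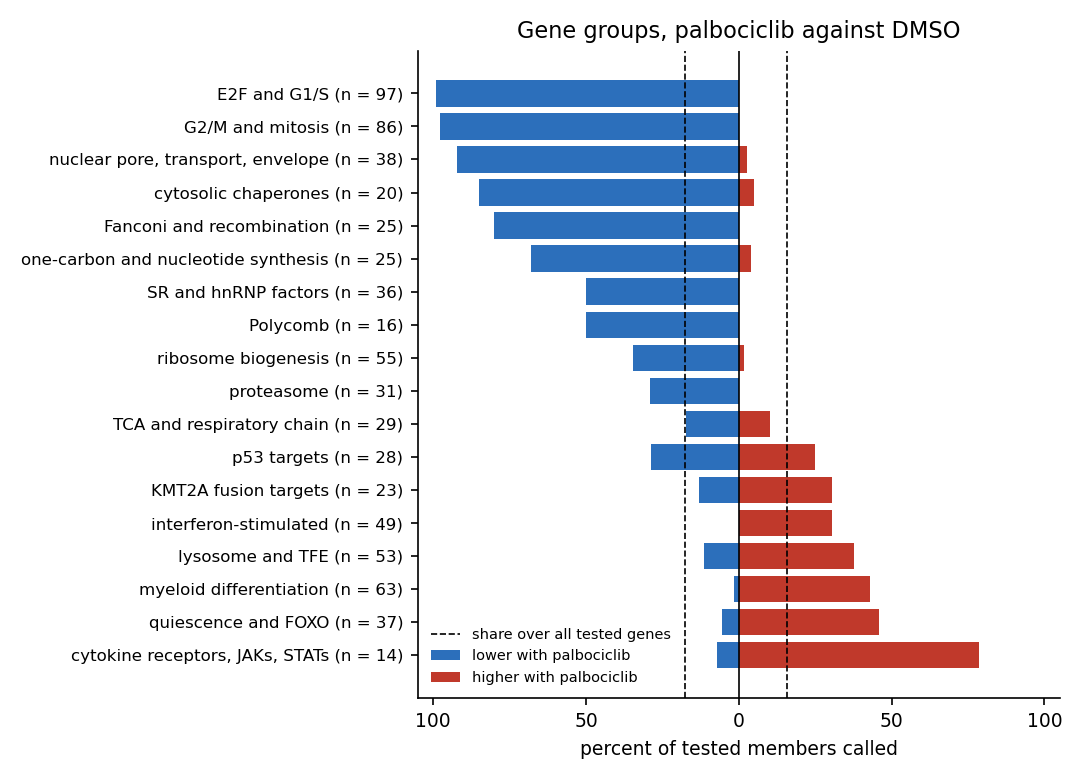
Percent of the tested members of 18 gene groups called lower (bars to the left) or higher (bars to the right) with palbociclib on the x axis, with the number of tested members beside each name and dashed lines at the shares over all tested genes, 17.6% lower and 15.6% higher. The nuclear pore and chaperone bars reach almost as far left as those of the E2F and G2/M lists, and the receptor bar reaches farthest right.

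Most one-carbon and serine pathway genes, which feed nucleotide synthesis, fell, and glycolysis genes were called in both directions. Of 25 one-carbon and serine pathway genes 17 fell and 1 rose (median -0.18). Of 7 pentose phosphate pathway genes 2 fell, 1 rose and 4 were not called (median -0.022). MTHFD1, the trifunctional folate enzyme, stood at 256, 255 and 254 CPM with DMSO and 139, 147 and 139 CPM with palbociclib. Its groups did not overlap (-0.85 ± 0.033, edgeR adjusted p = 4.22e-18; it overlaps ZBTB25). SHMT1, the cytosolic serine hydroxymethyltransferase, fell by a like amount (-0.95 ± 0.074; it overlaps SMCR8). The purine synthesis genes PAICS (-0.42 ± 0.029) and GMPS (-0.40 ± 0.035) and the serine synthesis gene PSAT1 (-0.43 ± 0.04) fell by less.

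Of 26 genes of glucose uptake and glycolysis 10 fell and 5 rose, and of 29 genes of the TCA cycle and respiratory chain 5 fell and 3 rose. In the latter group 27.6% were called, under the 33.3% of all tested genes. The number of central carbon genes called higher, 10 of 87, was 6 without DMSO replicate 3, 5 and 6 without palbociclib replicates 2 and 3, and 17 with library totals. In fatty acid synthesis and desaturation 7 of 12 fell and 1 rose, with a median of -0.13, among them the delta-5 desaturase FADS1 (-0.67 ± 0.031; it overlaps FADS2) and the elongase ELOVL5 (-0.29 ± 0.034). Of 19 sterol pathway genes 3 fell and 3 rose. Over all 43 sterol and fatty acid genes 6 rose, and 10 without DMSO replicate 2. In the list of amino acid stress genes, 9 of 40 fell and 7 rose. None of 15 RNA polymerase I and III genes rose and 4 fell, and of 40 nucleolar assembly genes 15 fell and 1 rose (median -0.063), where NOP56 was at -0.31 ± 0.028. With library totals, 8 of the 55 genes of both nucleolar groups were called higher.

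Several known brakes on growth were among the genes that rose most. Other brakes did not rise: of the 7 INK4 and CIP/KIP inhibitor genes given above 4 fell and 0 rose. MXD4, a MAX partner that competes with MYC at E-boxes, stood at 39.9, 40.5 and 36.4 CPM with DMSO and 70.4, 75.7 and 77.7 CPM with palbociclib. The lowest palbociclib library was far above the highest DMSO library (0.93 ± 0.049, edgeR adjusted p = 3.19e-15). MXD4 lies in GRCh38 at ENSG00000123933, chromosome 4, 2247432 to 2262294. DDIT4, also called REDD1, an inhibitor of mTORC1, stood at 9.998, 9.52 and 7.65 CPM with DMSO and 15.7, 14.8 and 18.3 CPM with palbociclib. Its groups did not overlap either (0.83 ± 0.092). PIK3IP1, which restrains PI3 kinase, rose from 3.52 ± 0.512 to 5.57 ± 0.635 CPM (0.68 ± 0.14).

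YPEL2, of the yippee family, stood at 8.22, 8.43 and 8.47 CPM with DMSO and 15.1, 14.3 and 14.4 CPM with palbociclib. The treated libraries all exceeded the DMSO libraries (0.80 ± 0.077). Its relative YPEL5 rose by less (0.61 ± 0.06). TXNIP, an alpha-arrestin that binds thioredoxin and limits glucose uptake, stood at 339, 337 and 336 CPM with DMSO and 484, 474 and 489 CPM with palbociclib. The gap between the groups far exceeded the spread within either (0.52 ± 0.028, edgeR adjusted p = 7.95e-15). ARRDC4, its close relative, rose by 0.58 ± 0.059, and the repressor HBP1, a known partner of RB, by 0.50 ± 0.056, with COG5 as its overlapping gene.

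In the quiescence and FOXO list that holds several of these genes, 17 of 37 rose and 2 fell, with a median of 0.14, against 15.6% higher among all tested genes. The summed share of counts of the list was 0.149%, 0.147% and 0.149% with DMSO and 0.180%, 0.177% and 0.180% with palbociclib, 1.21 times higher. The count of members that fell was 1 without DMSO replicate 1 or without palbociclib replicate 2 or 3.

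Others among the 20 largest increases of well-expressed genes had no shared theme that was tested. They included HK3, a myeloid hexokinase (0.76 ± 0.10; it overlaps UNC5A), AMPD3, an AMP deaminase (0.67 ± 0.11), the GABA transaminase ABAT (0.72 ± 0.095; it overlaps TMEM186), the small GTPase RAB7B (0.70 ± 0.12) and TRAF3IP2, an adaptor of interleukin-17 signalling (0.66 ± 0.11). FAM214B (0.83 ± 0.073), NCKAP5L (0.93 ± 0.076) and TMEM150A (0.97 ± 0.084), which overlaps the more highly counted gene USP39, rose as well.

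**Figure D5:**
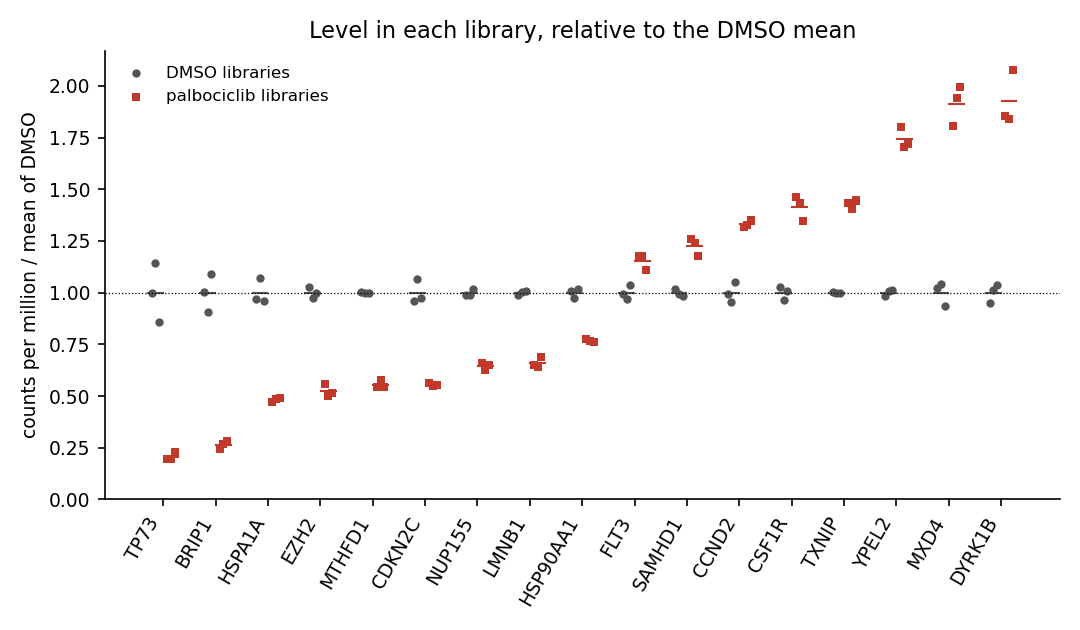
CPM divided by the mean of the DMSO libraries (y axis) in each of the 3 DMSO (circles) and 3 palbociclib (squares) libraries, with short lines at group means, for 17 genes on the x axis in order of change. The groups do not overlap for any gene plotted, from TP73 at the left to DYRK1B at the right, which for most of them was a condition of being chosen.

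The MYC side of the network did not move with its antagonists. MYC stood at 534, 586 and 539 CPM with DMSO and 530.3, 545 and 517 CPM with palbociclib. The groups overlapped (-0.06 ± 0.035, edgeR adjusted p = 0.198). Of 6 antagonists 3 rose and 1 fell: MXD4, MXI1 (0.17 ± 0.045) and MXD1 (0.19 ± 0.056) rose, and MXD3, known to be expressed in proliferating cells, fell (-0.69 ± 0.072; it overlaps PRELID1). Of 6 activators and partners MLXIP, MondoA, was called higher (0.11 ± 0.037) and 0 fell. The calls of MXD1 and MLXIP were lost under some alternatives.

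Receptors of myeloid growth factors and their STATs rose by small, regular amounts. Of 14 genes tested in that group 11 rose and 1 fell, with a median of 0.21, and the call of the 1 that fell was lost without palbociclib replicate 2. CSF1R, which binds macrophage colony-stimulating factor, stood at 64.6, 60.8 and 63.5 CPM with DMSO and 92.2, 90.4 and 84.9 CPM with palbociclib. All treated libraries were above all DMSO libraries (0.51 ± 0.04, edgeR adjusted p = 3.19e-11). FLT3, the mutated driver receptor of these cells, rose from 394 ± 13.9 to 455 ± 15.6 CPM (0.21 ± 0.032), the interleukin-3 receptor chains IL3RA (0.30 ± 0.043) and CSF2RB (0.29 ± 0.045) by somewhat more, and STAT3 by 0.38 ± 0.04. Of 12 STAT5 target genes 2 rose and 0 fell.

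Surface molecules made up most of the myeloid genes that rose. Of 35 surface receptor genes of myeloid cells 20 rose and 0 fell, with a median of 0.20, and of 15 granule and secreted protein genes 6 rose and 0 fell. Of 13 lineage transcription factor genes 1 rose and 1 fell, with a median of 0.0053, and 2 genes of the whole list fell without DMSO replicate 3. LILRB4, an inhibitory immunoglobulin-like receptor, stood at 268, 267 and 248 CPM with DMSO and 298, 316 and 313 CPM with palbociclib. The ranges did not overlap (0.24 ± 0.033). LILRB2 (0.48 ± 0.08), the chemokine receptor CCR1 (0.21 ± 0.034) and CD4, which monocytic cells carry (0.20 ± 0.032), rose as well. The summed level of the 11 myeloid markers given above moved in the same direction, and its part in these results was not tested.

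Called interferon and innate sensing genes were all higher with palbociclib. Of 13 sensors and factors 6 rose, with a median of 0.17, and of 36 effectors 9 rose, with a median of 0.093. Of all 49 tested genes 15 rose and 0 fell, with a median of 0.12. The number lower was 2 without DMSO replicate 2 and 1 without DMSO replicate 3 or palbociclib replicate 1. It was also 1 with DESeq2 size factors, with GC offsets, and with the replicate block with or without GC offsets. SAMHD1, a deoxynucleotide hydrolase, stood at 513, 501 and 496 CPM with DMSO and 634, 625 and 592 CPM with palbociclib. The groups did not overlap (0.29 ± 0.032, edgeR adjusted p = 2.20e-08). STAT2 (0.39 ± 0.053), IRF5 (0.28 ± 0.053), TMEM173, which encodes STING (0.24 ± 0.033), and MAVS (0.17 ± 0.034) rose too. In the antigen presentation list 7 of 31 rose, HLA-E (0.25 ± 0.03) among them, and 1 fell. That is 25.8% called, under the 33.3% of all tested genes, of which 15.6% were higher. The number higher was 3 without DMSO replicate 1 or 3, 14 without DMSO replicate 2, 4 without palbociclib replicate 2 and 16 with library totals.

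Lysosomal genes rose in part, with hydrolases ahead. Of 53 genes 20 rose and 6 fell, with a median of 0.082, and of the 22 hydrolases 11 rose and 2 fell. ATP6V0A1, a subunit of the proton pump, stood at 34.1, 34.7 and 34.1 CPM with DMSO and 45.9, 44.9 and 45.8 CPM with palbociclib. All treated libraries lay above all DMSO libraries (0.41 ± 0.046; it overlaps AC067852.3). The pump subunit ATP6V1A (0.30 ± 0.042) and the regulator TFE3 (0.30 ± 0.048) rose, and TFEB was not called (0.042 ± 0.07).

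Cell death genes were split. Of 7 survival genes 3 rose and 0 fell, among them BCL2 (0.13 ± 0.034) and the caspase-8 inhibitor CFLAR (0.31 ± 0.036). Of 15 death genes 4 rose and 4 fell: CASP9 (0.47 ± 0.069), BMF (0.35 ± 0.048) and CASP8 (0.37 ± 0.07) rose, and PMAIP1, NOXA, fell (-0.52 ± 0.068). With library totals 12 of the 22 genes were higher. The p53 target list was as mixed, with 7 of 28 higher and 8 lower: BTG2 rose (0.51 ± 0.077), and DDB2, given above, and AEN (-0.45 ± 0.044) fell.

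Genes bound by the KMT2A fusion in such leukaemias changed by small amounts, from -0.16 to 0.28. HOXA9 stood at 48.3, 46.1 and 46.8 CPM with DMSO and 49.6, 47.97 and 49.3 CPM with palbociclib. MEIS1 stood at 107, 109 and 118 CPM with DMSO and 113, 112 and 112 CPM with palbociclib. The groups overlapped for both, and neither passed the test (0.058 ± 0.042 and 0.016 ± 0.036). Of 23 tested fusion targets 7 rose and 3 fell, with a median of 0.045 and LMO2 at 0.15 ± 0.03. In all, 43.5% of them were called, against 33.3% of all tested genes, of which 15.6% were higher, and 38% of protein-coding genes. Of 10368 well-expressed genes 2023 were higher and 2306 lower, so the share of fusion targets called is no clear excess. The number higher was 4 without DMSO replicate 2 or palbociclib replicate 1. NF-kappaB and cytokine genes showed 6 of 20 higher and 2 lower, among them TNF (0.44 ± 0.087) and ICAM1 (0.53 ± 0.075), and 1 lower without DMSO replicate 2 or palbociclib replicate 1 or 2.

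Non-coding genes were called less often than protein-coding ones, at lower counts. Of 1445 long non-coding genes 109 rose and 59 fell, 11.6% called, and of 11799 protein-coding genes 38%. Their median average log2 CPM was 0.472 and 5.06. Among host genes of small RNAs, MIR17HG, the host of the miR-17 cluster and a known target of E2F and MYC, fell (-0.51 ± 0.13), as did SNHG1 (-0.34 ± 0.046), and MIR22HG rose (0.58 ± 0.15). TMPO-AS1 fell (-1.50 ± 0.064), and it lies antisense to TMPO, so the reads of the 2 cannot be told apart.

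Direct contrasts with the other compounds show where palbociclib differed. They share the palbociclib libraries with the contrast above, so their values are given side by side. Against BSJ-03-123 at the same dose and time, 22 of 14214 genes were lower with palbociclib, 0.155%, and 0 were higher. At an unadjusted edgeR p under 0.05 there were 1198 in either direction. With so many genes tested, many pass that limit with no difference between the groups. DESeq2 called 38 lower and 5 higher. The count was 3 without palbociclib replicate 1, 5 without replicate 2 of either group and 14 without BSJ-03-123 replicate 1 or 3 or palbociclib replicate 3.

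Of the 22, 11 were E2F list members. MCM4 (-0.24 ± 0.031), HSPA1A (-0.39 ± 0.042) and the zinc-finger gene ZNF692 (-0.51 ± 0.045) were called lower in all 15 alternative analyses. CCNE2 was called in 9 of 15 (-0.84 ± 0.18) and IL7R, the interleukin-7 receptor, in 12 (-0.63 ± 0.11). The collagen chaperone SERPINH1 was called in 14 (-0.22 ± 0.036). ZNF692 was not called against DMSO (0.01 ± 0.046), with 89.5, 82.5 and 88.7 CPM with DMSO and 89.04, 88.5 and 84.4 CPM with palbociclib. The histone methyltransferase KMT2D (-0.27 ± 0.05), the 5-methylcytosine oxidase TET3 (-0.20 ± 0.04) and the desaturase FADS1 (-0.18 ± 0.032) were also among them, and KMT2D was called in 12 analyses and the other two in 10 each. KMT2D, TET3, SERPINH1 and MCM4 were named after their values were seen.

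Genes that carried the palbociclib response elsewhere were not called against BSJ-03-123, which does not show that they responded alike. EZH2 differed by -0.036 ± 0.046 (95% interval -0.13 to 0.059), MXD4 by 0.12 ± 0.046 (0.031 to 0.22), CSF1R by -0.041 ± 0.038 (-0.12 to 0.038) and TXNIP by 0.11 ± 0.028 (0.053 to 0.17). The intervals of MXD4 and TXNIP leave out 0 before adjustment for the number of genes.

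Against YKL-06-102, 1695 genes were higher and 1812 lower with palbociclib, 11.9% and 12.7% of 14214. The higher count was 985 and 1052 without palbociclib replicates 1 and 2, and 1031 to 1057 without 1 of the YKL-06-102 libraries. Of 97 E2F list genes 90 were lower with palbociclib, and of 25 Fanconi and homologous recombination genes 17 were lower and 0 higher. Of 63 myeloid genes 29 were lower and 8 higher with palbociclib. E2F1 differed by -0.91 ± 0.058, EZH2 by -0.25 ± 0.045 and HSPA1A by -0.60 ± 0.041.

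The myeloid receptor genes show both orders. CSF1R was lower with palbociclib than with YKL-06-102 (-0.69 ± 0.037), as was TREM2, a lipid-sensing receptor (-2.85 ± 0.11), while FLT3 was higher (0.23 ± 0.031). Of the genes that rose against DMSO, ARRDC4 was lower than with YKL-06-102 (-1.71 ± 0.047), and TXNIP was higher (0.16 ± 0.028). The mitochondrial thymidine kinase TK2 (1.97 ± 0.062) and the zinc-finger gene C11orf95 (2.71 ± 0.12) were higher with palbociclib, and against DMSO they stood at 0.18 ± 0.049 and 0.0044 ± 0.072. The phosphatase gene CTDSPL, which acts on RB, was lower with palbociclib than with YKL-06-102 or DMSO: its contrast with YKL-06-102 was -2.38 ± 0.14 and with DMSO -1.12 ± 0.16. These values were called, apart from that of C11orf95 against DMSO, and the calls against YKL-06-102 held in all 15 alternatives.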

How the data were processed

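The authors deposited unnormalized read counts, 1 row a gene and 1 column a library, and every value was a whole number. The submitters' processing notes name Trimmomatic 0.36 as the trimmer, STAR 2.5.2b as the aligner, HTSeq as the counter and hg38 as the genome. Not given in the sources used here were the HTSeq version, annotation release and strand setting. Without strand, reads of overlapping genes cannot be told apart. Beside the genes for which a partner is named in the text, CCND1, CDK6, RBL2, DNMT1, H2AFZ, HELLS, HSP90AA1, HSPA8, HOXA9, MEIS1, MXD1, NOP56, SNHG1, SRSF2, TEDC2, TOPBP1, TRAF3IP2, NCKAP5L, ICAM1, UFD1, KMT2D, AKT1 and CDKN2A overlap another expressed gene.

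Gene IDs were matched to GENCODE 29, which named 57447 of 58051. One edgeR fit (4.0.16, R 4.3.3) took in all 12 libraries (filterByExpr with the 4 groups and a minimum count of 10, TMM factors, quasi-likelihood fit with 8 residual degrees of freedom, 2-sided test), and CPM are TMM-scaled. The common biological coefficient of variation was 3.08%. On simulated data for palbociclib against DMSO, over 13944 genes, the fit called 78% of genes changed 1.25-fold and 100% of those changed 1.5-fold, 2-fold or 3-fold, and 8 unchanged genes, 4.06% of calls. The 50 genes changed by each fold were drawn from those at 4 CPM or more with DMSO, as many up as down. Counts were drawn from the kind of model that is fitted, with no outlying library. These rates therefore check the fit and do not carry over to less expressed genes or to the real calls. Intervals on shares are exact binomial ones and cover counting error only.

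The members and the 33 gene lists were chosen with earlier results of these data known, and lists are described by counts and medians with no test. Named genes were taken from calls whose groups do not overlap and whose average log2 CPM is 2 or more: outside the E2F and G2/M lists the 20 highest and 20 lowest changes, in those lists together the 6 lowest, in other lists up to 5 by smallest p, in each contrast with another compound the 6 highest and 6 lowest, and a set of cell cycle and leukaemia genes given in any case. Not every gene allowed is named. Motif classes were split at 1.5-fold, because under 80% of genes that fell at least 2-fold had a RefSeq promoter. Alternatives were library totals or DESeq2 size factors for scaling, DESeq2 1.42.0, limma-voom (limma 3.58.1), no filter, a fit of 2 groups, GC offsets, a replicate block, and each library left out.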

Additional observations from a re-analysis of the deposited data

How the results depend on the processing

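Direction and call held in most alternatives: of 2925 results of 195 named genes against DMSO over 15 alternatives each, 2875 kept both, 31 lost the call, 9 gained one and 10 changed sign. Of 183 called genes 171 kept the call in all 15, 12 lost it in at least 1 and 0 changed sign. The sign changes were of uncalled genes near 0, all on leaving out 1 library: over the 6 libraries left out in turn, MEIS1 ranged from -0.015 to 0.053, C11orf95 from -0.025 to 0.037, ZNF692 from -0.030 to 0.032, TFEB from -0.013 to 0.13 and LGALS3BP from -0.044 to 0.12. Against DMSO, library totals gave 3396 genes higher, and DESeq2 gave 4 at least 2-fold higher where edgeR gave 39. Leaving out 1 library gave 3876 to 4599 calls, 1667 to 2108 higher, 2209 to 2509 lower, 35 to 50 at least 2-fold higher and 227 to 241 at least 2-fold lower. For palbociclib against BSJ-03-123, the total, higher and lower counts were 43, 5 and 38 with DESeq2, 64, 22 and 42 with no filter, 75, 14 and 61 with 2 groups only and 80, 13 and 67 with GC offsets, and library totals gave 2 higher. Leaving out 1 library gave 3 to 14 in all, 0 to 2 higher and 3 to 13 lower. Against YKL-06-102 the ranges were 2707 to 3042, 985 to 1445 higher and 1597 to 1816 lower. With library totals the members higher were 12 instead of 5 chromatin genes, 12 instead of 6 heat shock and unfolded protein response genes, 14 instead of 6 sterol and fatty acid genes, 7 instead of 4 non-coding host genes and 2 instead of 0 splicing factors. The members lower were 1 instead of 3 KMT2A fusion targets, 3 instead of 5 non-coding host genes, 1 instead of 2 in each of the NF-kappaB and quiescence lists and 0 instead of 1 in the FLT3 and cytokine list. Counts of list members also moved with the method. With no filter 8 chromatin genes rose, and with 2 groups only 3 heat shock and unfolded protein response genes and 3 antigen presentation genes rose. Of the non-coding host genes 3 fell with DESeq2, with no filter or with 2 groups only. The causes were not tested. With the strict pair of E2F sites, 16.6% of promoters of genes at least 1.5-fold lower held one.

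Same-numbered DMSO and palbociclib libraries did not deviate together (r = 0.063, 0.037 and -0.16 across genes), so the numbers were not read as pairs. With the replicate block, 1 gene was higher than with BSJ-03-123, and with the replicate block and GC offsets the counts were 102 in all, 18 higher and 84 lower. The block moved no other count of calls between groups by over 1.5 times.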

Other observations

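Within the APOBEC3 cytidine deaminase family, members moved in opposite directions with palbociclib. APOBEC3B, an enzyme known for mutating tumour genomes and a reported target of DREAM, stood at 13.2, 13.4 and 11.1 CPM with DMSO and 7.27, 8.39 and 7.23 CPM with palbociclib. APOBEC3G, a restriction factor of retroviruses, stood at 11.6, 11.2 and 12.3 CPM with DMSO and 14.5, 15.9 and 15.9 CPM with palbociclib. The groups did not overlap for either: APOBEC3B fell (-0.73 ± 0.092, edgeR adjusted p = 2.67e-07) and APOBEC3G rose (0.40 ± 0.075, edgeR adjusted p = 9.87e-05), and the other 3 tested members were not called. Family members share sequence, so reads could be split between them. Among ERK pathway genes, where 5 of 32 rose and 5 fell, the ETS factor ETV4 fell (-0.78 ± 0.11; it overlaps DHX8), as did the phosphatase DUSP2 (-0.36 ± 0.075), and the mRNA decay factor ZFP36 rose (0.25 ± 0.043). Both counts of that list moved with the scaling, the method and single libraries. With library totals 12 rose and 2 fell, and 2 rose and 2 fell without palbociclib replicate 1. The counts were 3 higher and 2 lower without DMSO replicate 2, and 3 rose without palbociclib replicate 2 and 3 fell without DMSO replicate 3. DESeq2 gave 3 higher and 2 lower, and a fit of 2 groups gave 3 higher and 3 lower.

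The smaller lists that follow can be read against 15.6% higher and 17.6% lower over all tested genes, shares that are larger among well-expressed genes. Of 31 proteasome subunit genes 9 fell and 0 rose, among them PSMC3 (-0.39 ± 0.035) and PSMD11 (-0.17 ± 0.031), and 5, 5 and 4 fell without DMSO replicate 1, palbociclib replicate 1 and palbociclib replicate 3. With library totals 3 proteasome genes fell and 4 rose, and the median of the list went from -0.022 to 0.026. With no filter on low counts 3 fell, and without DMSO replicate 2 the number higher was 2. Of 15 circadian clock genes 3 rose and 1 fell, with CRY2 at 0.19 ± 0.048 and PER3 at -0.35 ± 0.11, and the call of PER3 was lost without DMSO replicate 3 or palbociclib replicate 1. Of 13 genes reported to be regulated by CDK6 as a transcriptional cofactor, 2 rose and 3 fell, the latter AKT1 (-0.28 ± 0.032), PPM1D (-0.27 ± 0.054) and CDKN2A (-0.29 ± 0.057). There 4 rose without DMSO replicate 3 and 1 without palbociclib replicate 1. Of 13 mitochondrially encoded genes 1 fell, and 12 fell without DMSO replicate 2, the library with the lowest mitochondrial share. With no filter on low counts 7 of them fell. Of 7 lymphoid marker genes 1 fell, 0 of 6 red cell and platelet genes were called, and 2 of 5 tested genes of a longer stromal and epithelial list rose, PECAM1 (0.13 ± 0.034), which myeloid cells also express, and KRT18 (0.27 ± 0.079; it overlaps KRT8).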
